A study of Homo sapiens with 29 samples.

Results

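Gene expression was compared between parental MDA-MB-231 tumours of mice given decitabine together with doxorubicin and those of mice given doxorubicin alone, to ask which transcripts decitabine moved when it was added to the anthracycline. The comparison was set by the sample titles and uses 7 of the 29 libraries of the series, 4 from the combination (title A_DAC_DOX) and 3 from doxorubicin alone (title A_DOX). MDA-MB-231 is an established human line of triple-negative breast cancer, and its cells (250000 per injection) were placed into both sides of immunodeficient SCID-beige mice. The combination mice received 0.4 mg/kg decitabine on days 1 to 4 and on days 10 and 11, and 1 mg/kg doxorubicin on days 5 and 12, in each of 2 cycles of 12 days with 2 days of rest between them. The doxorubicin mice received the same doses of doxorubicin on the same days without decitabine, so both groups carried the anthracycline exposure. Treatment began 6 days after injection and lasted 26 days. The 4 libraries of decitabine alone and 4 of vehicle in the same parental tumours, and the 3 of the combination and 4 of doxorubicin in tumours of a paclitaxel-resistant derivative, serve below only to show where the response differs. Each treatment had 4 mice, but which mouse a library came from is not in the labels. Some tumours could therefore share a mouse, and the p-values reflect only how far these tumours vary.

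Decitabine is a cytidine analogue that is built into DNA during replication and traps DNA methyltransferases there, so that methylation marks are lost as cells divide. Genes silenced by promoter methylation, and repeats whose transcripts can trigger an interferon response, are its best known targets. Doxorubicin poisons topoisomerase II and intercalates into DNA, and damaged cells slow their passage through the cell cycle.

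The 7 libraries held between 4293642 and 5382295 counts, and 13495 of 58302 genes entered the test, with 99.72% of all counts. The tumours carried the transcripts of the labelled line: VIM lay between 2250 and 3030 CPM (a unit in which each library is brought to the same scaled total), EGFR between 127 and 176 CPM, PGR had no count and ESR1 stayed at or below 0.878 CPM. Library 3 of doxorubicin stood apart. On the first principal component of the 7 libraries (36% of the variance) it lay at -31.74, against -10.5 and -7.13 for the other doxorubicin libraries and 4.42 to 25.2 for the combination. Mitochondrially encoded genes held 9.45% of its counts, against 6.94% to 8.09% in the other 6 libraries. Without it, 34 of the 41 calls described below did not pass and 7 did, and no called gene changed sign.

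Adding decitabine to doxorubicin raised far more genes than it lowered. At an adjusted p under 0.05 (edgeR quasi-likelihood test, Benjamini-Hochberg over all genes tested), 41 genes changed, 0.304% of those tested. Of these, 35 rose (0.259%) and 6 fell (0.0445%), and 27 of the rising genes but 2 of the falling genes moved by at least 1 on the log2 scale. In all 41 the combination libraries lay wholly above or wholly below the doxorubicin libraries, a separation found in 12.6% of all genes tested (6.8% higher, 5.85% lower). The 41 were chosen by their values in these same libraries, which by itself favours such a separation. At an unadjusted p under 0.05 the split was nearly even, with 799 genes higher (5.92%) and 776 lower (5.75%). Among the 35 rising genes, 11 averaged under 1 CPM with doxorubicin alone, 11 between 1 and 10 CPM and 13 above 10 CPM. Over all genes tested, 450 averaged under 1 CPM with doxorubicin alone. Such genes passed the filter on low counts through their level in other groups. They had little room to fall, so the direction of the 11 is no separate result. In bulk tumours, more cells that carry a transcript and more transcript per cell cannot be told apart.

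**Figure D1:**
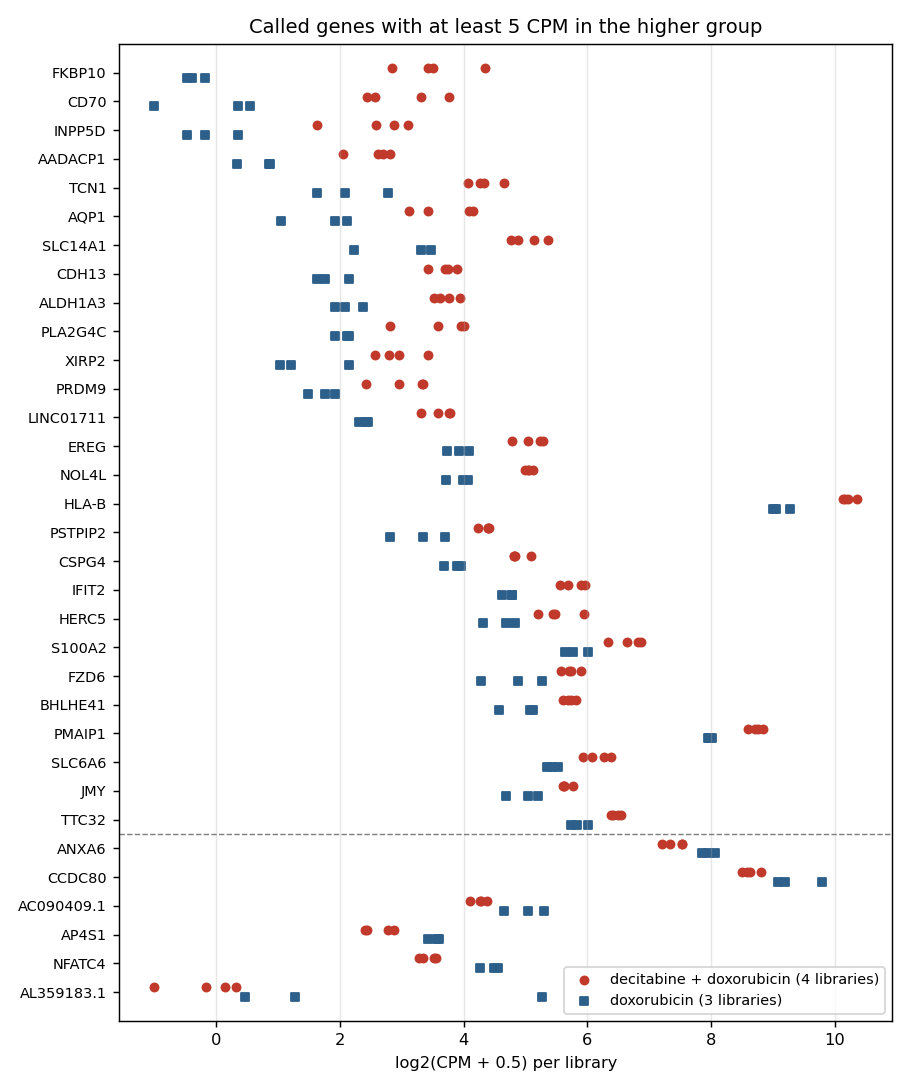
Level of each called gene that reached 5 CPM or more in its higher group, as log2 CPM with a small pseudocount on the horizontal axis, in the 4 combination libraries (circles) and the 3 doxorubicin libraries (squares). The 27 genes above the dashed line were higher with the combination and the 6 below it were lower, and in no gene do the circles and squares overlap.

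The steepest rises were of genes that were nearly silent with doxorubicin alone, which the filter on low counts favours. FKBP10, which encodes a prolyl isomerase of the endoplasmic reticulum that helps collagen to fold, stood at 6.7, 10.2, 10.9 and 19.8 CPM in the combination libraries, against 0.385, 0.22 and 0.261 CPM in the doxorubicin libraries. The lowest combination tumour was thus far above the highest doxorubicin tumour, and the gene rose by 5.21 on the log2 scale (SE 0.69, adjusted p = 2.86e-04). LRRC17, a secreted leucine-rich repeat protein, had 3.35, 4.52, 3.43 and 3.54 CPM with the combination, against 0.385, 0.22 and 0.261 CPM with doxorubicin (log2 3.54, SE 0.45, adjusted p = 2.86e-04). Its combination libraries lay close to each other and far above the doxorubicin libraries. LRRC17 overlaps FBXL13 on the opposite strand in the annotation, and the strand setting of the counting is not given in the sources used here.

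INPP5D encodes SHIP1, a phosphatase of blood cells that removes a phosphate from the lipid messenger PIP3. It had 2.61, 5.5, 8.07 and 6.87 CPM in the combination libraries, against 0.385, 0.22 and 0.782 CPM in the doxorubicin libraries (log2 3.61, SE 0.57, adjusted p = 0.00308). CD70, the ligand of the lymphocyte receptor CD27, had 5.4, 4.91, 9.48 and 13.1 CPM with the combination, against 0.962, 0 and 0.782 CPM with doxorubicin (log2 3.74, SE 0.64, adjusted p = 0.00446). Both are known from blood cells, and the lymphoid markers CD3D, CD3E, CD4 and MS4A1 were without a count in all 7 libraries, as were 5 others of the 15 listed. The list summed to 13.96 to 36.4 CPM with the combination, against 11.2 to 57.6 CPM with doxorubicin. Of its 3 members tested none was called, but IL7R, an interleukin receptor chain, had 6.25 to 10.1 CPM against 3.27 to 3.73 CPM (log2 1.28, SE 0.33, adjusted p = 0.104), and CD8A had 0.786 to 1.12 CPM against 0.22 to 0.769 CPM, both without overlap. The part of other cells in the INPP5D and CD70 values was not tested.

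Several genes had so few counts with doxorubicin alone that only bounds or wide intervals can be given. CD93, a surface lectin of endothelium and myeloid cells, had 44 counts over the 4 combination libraries and 0 over the 3 doxorubicin libraries, at least 9.86-fold higher against a floor of 3 counts over the group. The endothelial marker list as a whole summed to 206.4 to 253.1 CPM with the combination, against 234.9 to 290.6 CPM with doxorubicin, with a count for 14 of 15 markers and none for PLVAP. The myeloid list summed to 93.7 to 147.5 CPM, against 108.7 to 122.7 CPM, with a count for 12 of 18 markers and none for ITGAM, TYROBP, C1QA, C1QC, S100A8 or S100A9. SPP1, which encodes the secreted phosphoprotein osteopontin, had 57 counts with the combination and 2 with doxorubicin, a ratio of 19.2 (exact 95% interval 5.07 to 162). NRIP3 had 42 counts against 2 (ratio 14.1, interval 3.67 to 120). For TRBC2, a constant segment of the T cell receptor β chain, the counts were 57 against 3 (ratio 12.8, interval 4.16 to 63.8). CACNG8, a regulatory subunit of AMPA receptors, had 39 against 3 (ratio 8.74, interval 2.78 to 44.2). These intervals cover counting error only. With vehicle CACNG8 had 1.85, 0.869, 0.257 and 0.456 CPM, beside 1.49 to 2.83 CPM with the combination and 0.192 to 0.261 CPM with doxorubicin. Its call held in 1 of 7 fits with 1 library left out and in 6 of 9 other settings. The other 2 called genes under 1 CPM with doxorubicin were the non-coding RNAs XIST and AC087392.1, the second of them annotated as antisense. PRDM9, a histone methyltransferase of meiosis, had 9.5, 9.63, 4.84 and 7.29 CPM in the combination libraries, against 2.31, 3.29 and 2.87 CPM in the doxorubicin libraries (log2 1.47, SE 0.33, adjusted p = 0.0381). Without doxorubicin library 3 its log2 value was 1.51 (adjusted p = 0.186).

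Promoter sequences are printed for 3 genes that decitabine raised in this comparison and also in the other 2 comparisons described below, since CG dinucleotides are the sites that DNA methyltransferases act on. They come from RefSeq (GRCh38.p14), run from 250 bases before to 50 after the gene's start, and carry every CG in capitals. A promoter was found for 25 of the 41 called genes, too few for a comparison of groups. Over 27305 promoters of this length the median was 14 CG, with quartiles at 3 and 28.
LRRC17: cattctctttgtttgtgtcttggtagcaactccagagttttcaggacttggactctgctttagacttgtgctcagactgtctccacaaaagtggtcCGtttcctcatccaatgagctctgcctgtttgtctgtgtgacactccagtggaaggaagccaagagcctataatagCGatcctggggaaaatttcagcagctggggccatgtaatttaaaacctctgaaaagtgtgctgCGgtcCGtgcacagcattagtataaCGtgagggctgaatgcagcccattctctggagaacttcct
ALDH1A3: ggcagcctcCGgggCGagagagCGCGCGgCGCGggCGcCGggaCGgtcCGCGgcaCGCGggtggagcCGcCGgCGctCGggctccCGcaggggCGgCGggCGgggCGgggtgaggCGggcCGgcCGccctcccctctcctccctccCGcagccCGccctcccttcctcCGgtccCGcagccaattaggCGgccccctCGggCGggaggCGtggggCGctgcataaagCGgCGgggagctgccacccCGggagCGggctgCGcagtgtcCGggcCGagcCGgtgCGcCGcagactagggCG
NOL4L: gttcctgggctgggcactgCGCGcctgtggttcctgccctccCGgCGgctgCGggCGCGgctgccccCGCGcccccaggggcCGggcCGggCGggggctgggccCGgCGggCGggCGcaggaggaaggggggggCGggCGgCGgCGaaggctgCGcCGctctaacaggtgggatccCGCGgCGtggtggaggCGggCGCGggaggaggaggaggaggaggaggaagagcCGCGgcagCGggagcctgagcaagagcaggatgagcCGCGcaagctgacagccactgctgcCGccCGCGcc

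The LRRC17 promoter (chr7:102912750-102913049, plus strand) held 5 CG and that of ALDH1A3 (chr15:100879581-100879880, plus strand) held 46, a number that 97.6% of promoters did not exceed. That of NOL4L (chr20:32585284-32585583, minus strand) held 36. Genes with sparse and with dense CG were thus both among those raised, and methylation itself was not measured here.

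A second set of genes rose from low to moderate levels. ALDH1A3, a retinaldehyde dehydrogenase that makes retinoic acid, had 11, 11.8, 14.9 and 13.1 CPM in the combination libraries, against 3.27, 3.73 and 4.69 CPM in the doxorubicin libraries (log2 1.71, SE 0.29, adjusted p = 0.00446). CDH13 encodes T-cadherin, an adhesion protein anchored in the membrane without a cytoplasmic tail and often silenced by methylation in carcinomas. It had 10.2, 14.3, 12.9 and 12.5 CPM with the combination, against 2.89, 3.95 and 2.61 CPM with doxorubicin (log2 1.97, SE 0.32, adjusted p = 0.00308). NOL4L lay between 31.5 and 34.5 CPM, against 12.7 to 16.4 CPM (log2 1.15, SE 0.19).

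EREG, which encodes the EGF receptor ligand epiregulin, had 37.2, 27.1, 32.3 and 38.5 CPM with the combination, against 16.5, 14.7 and 12.8 CPM with doxorubicin (log2 1.20, SE 0.20, adjusted p = 0.00415). TCN1, a binder of vitamin B12, had 16.3 to 24.6 CPM, against 2.61 to 6.35 CPM (log2 2.19, SE 0.40). The urea transporter SLC14A1 had 26.8, 28.9, 34.9 and 40.6 CPM with the combination, against 10.6, 9.44 and 4.17 CPM with doxorubicin (log2 1.99, SE 0.36, adjusted p = 0.0079). AQP1, a water channel, had 8.19 to 17.2 CPM, against 1.56 to 3.85 CPM (log2 2.12, SE 0.36), and its locus overlaps AC004691.2 on the same strand. SLC6A6, the taurine transporter, rose less, to 60.5 to 82.9 CPM against 40.2 to 45.6 CPM (log2 0.75, SE 0.17). Without doxorubicin library 3 the log2 values were 1.13 for EREG, 1.97 for TCN1, 1.72 for SLC14A1, 1.86 for AQP1 and 0.81 for SLC6A6, with adjusted p from 0.0504 to 0.149. Among membrane and signalling proteins, the proteoglycan CSPG4 rose by 1.07 (SE 0.19), the cytosolic phospholipase PLA2G4C by 1.71 (SE 0.32) and the Wnt receptor FZD6 by 0.87 (SE 0.19). S100A2, a calcium-binding protein of epithelia, had 80.2 to 116 CPM, against 49.6 to 63.8 CPM (log2 0.87, SE 0.19). These 4 also missed the threshold without that library, with log2 values of 1.11 for CSPG4, 1.77 for PLA2G4C, 0.67 for FZD6 and 0.99 for S100A2.

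Interferon-stimulated and HLA class I genes leaned upward together, with 3 of them called. HLA-B, a class I molecule that presents peptides on the cell surface, had 1150, 1190, 1120 and 1320 CPM in the combination libraries, against 528, 619 and 511 CPM in the doxorubicin libraries. Every combination tumour lay above every doxorubicin tumour (log2 1.11, SE 0.22, adjusted p = 0.0183), and HLA-B was the most abundant called gene in the combination. Its annotated locus overlaps HLA-C, and reads of the near-identical class I genes could have been split or joined. HLA-C had 216 to 310 CPM with the combination, against 164 to 179 CPM with doxorubicin (log2 0.59, SE 0.19, adjusted p = 0.234). For the light chain B2M the ranges were 3850 to 4450 CPM with the combination and 2970 to 3510 CPM with doxorubicin (log2 0.37, SE 0.13, adjusted p = 0.248). Neither passed the test, and both were chosen for mention after their values were seen. Of 19 class I and peptide loading genes tested, 1 was called and 14 lay above 0, with 6 higher and 0 lower at an unadjusted p under 0.05. Over all genes tested 0.304% were called, and 5.92% were higher and 5.75% lower at that level. The summed level of the list was 9320 ± 496 CPM with the combination (SD, n = 4) and 7267 ± 225 CPM with doxorubicin (SD, n = 3). The ranges did not overlap, and the two-sided exact permutation p was 0.0571, the smallest that 4 against 3 libraries allow (0.409 adjusted over 43 summary values).

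IFIT2, an RNA-binding protein that restrains viral translation, had 59, 62.1, 46.4 and 50.8 CPM in the combination libraries, against 26.9, 27 and 24.2 CPM in the doxorubicin libraries (log2 1.06, SE 0.23, adjusted p = 0.0322). HERC5, the ligase that attaches the ubiquitin-like protein ISG15, had 61.1, 43.2, 36.5 and 44 CPM, against 27.9, 25.2 and 19.3 CPM (log2 0.93, SE 0.20, adjusted p = 0.0351). These 2 were the members called of 53 interferon-stimulated genes tested, beside 0.304% of all genes tested. The list lay above 0 in 49 genes, beside 51% of all genes tested. At an unadjusted p under 0.05, 25 (47.2%) were higher and 0 lower, beside 5.92% and 5.75% of all genes tested. Its median log2 was 0.47, beside 0.01 over all genes tested. MX1, a GTPase that blocks viruses, had 18.2, 7.07, 25.2 and 20.4 CPM with the combination, against 4.81, 4.39 and 2.08 CPM with doxorubicin, and did not pass (log2 2.19, SE 0.63, adjusted p = 0.167). In the vehicle libraries it had 3.94, 11.5, 7.97 and 22.1 CPM. The values of IFI44, DDX60 and OASL were 0.77, 0.87 and 1.39 on the log2 scale, with adjusted p from 0.0664 to 0.0769. Decitabine alone against vehicle raised IFI44 (log2 0.79, adjusted p = 0.0182) and OASL (log2 1.70, adjusted p = 0.0108), with DDX60 at 0.43 (adjusted p = 0.227). In that comparison 5 genes of the list were called higher and 1 lower. Doxorubicin library 3 had the lowest summed level of the list, and without it the count at an unadjusted p under 0.05 was 16 higher and 0 lower, with a median of 0.27.

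The HERC5 promoter (chr4:88456869-88457168, plus strand, RefSeq GRCh38.p14) is printed because it carries GAAA, any 2 bases and GAAA again, the core of the element through which interferon acts, 3 times. The matches lie on the other strand, begin 125, 119 and 74 bases before the start, and are in capitals, with the first pair overlapping.
HERC5: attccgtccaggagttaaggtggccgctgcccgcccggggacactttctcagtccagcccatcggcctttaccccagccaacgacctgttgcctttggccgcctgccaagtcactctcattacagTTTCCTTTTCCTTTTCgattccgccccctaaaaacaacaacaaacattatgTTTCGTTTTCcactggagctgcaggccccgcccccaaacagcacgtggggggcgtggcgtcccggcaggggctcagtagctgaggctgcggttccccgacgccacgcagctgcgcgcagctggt
On either strand, 996 of 27305 promoters (3.65%) held these letters, and a match is a description of the sequence only. HERC5 was the 1 of the 25 called genes with a promoter that held them, and the HLA-B promoter did not. For IFIT2 no promoter was found, so it was not examined. Among the interferon-stimulated genes above that did not pass, MX1, IFI44 and DDX60 held them, and for OASL no promoter was found.

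Among genes of cell death and the p53 response, PMAIP1 rose. It encodes NOXA, a BH3-only protein that opposes MCL1, and had 433, 456, 389 and 417 CPM with the combination, against 248, 250 and 259 CPM with doxorubicin (log2 0.75, SE 0.14, adjusted p = 0.0124). The doxorubicin libraries were nearly equal, and the lowest combination tumour exceeded all of them. BBC3, which encodes the related protein PUMA, had 129 to 144 CPM against 80.8 to 95.7 CPM and did not pass (log2 0.65, SE 0.21, adjusted p = 0.247). CDKN1A, the p53 target that encodes the cyclin kinase inhibitor p21, had 70.4, 64.4, 72.6 and 61.9 CPM, against 67.7, 64.3 and 145 CPM (log2 -0.45, SE 0.20, adjusted p = 0.385). Its value rests on doxorubicin library 3, without which it was 0.05. Of 31 p53 targets and of 35 apoptosis genes tested, PMAIP1 was the one called in each list, beside 0.304% of all genes tested, and the medians were 0.04 and 0.12. At an unadjusted p under 0.05, 4 p53 targets were higher and 2 lower, and 6 apoptosis genes were higher and 3 lower. TP53I3, a p53-induced quinone oxidoreductase, had 19.2, 20.6, 25.2 and 24 CPM with the combination, against 32.1, 36.2 and 41.4 CPM with doxorubicin, without overlap (log2 -0.72, SE 0.17, adjusted p = 0.056). Of 17 TNF family genes tested, CD70 was the one called, and 4 were higher and 1 lower at an unadjusted p under 0.05. Over all genes tested the shares at that level were 5.92% higher and 5.75% lower. TNFSF10, the death ligand TRAIL, had 13.8 to 18.7 CPM against 2.35 to 7.9 CPM (log2 1.49, SE 0.35, adjusted p = 0.0631).

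Of the 6 genes that fell, 5 had log2 values between -1.04 and -0.55. CCDC80, a secreted matrix protein, had 361, 450, 384 and 396 CPM in the combination libraries, against 544, 589 and 886 CPM in the doxorubicin libraries (log2 -0.76, SE 0.16, adjusted p = 0.0231). Without doxorubicin library 3 its log2 value was -0.49 (adjusted p = 0.369). The fibroblast marker list summed to 369.6 to 782 CPM with the combination and 580.4 to 1268 CPM with doxorubicin, highest in that library, and all 13 markers had counts. Most of its members did not share the direction of the sum. Of 8 tested, 6 lay above 0 and 2 below, with a median log2 of 0.31. At an unadjusted p under 0.05, 2 were higher and 0 lower, beside 5.92% and 5.75% of all genes tested. NFATC4, a transcription factor of calcineurin signalling, had 9.68, 9.24, 11.3 and 11 CPM, against 18.7, 23 and 21.9 CPM (log2 -1.04, SE 0.23, adjusted p = 0.0409). With 1 library left out its log2 value stayed between -1.12 and -0.95. Its call held in 0 of those 7 fits, with an adjusted p of up to 0.249. ANXA6, an annexin that binds membranes in the presence of calcium, had 147 to 185 CPM, against 232 to 267 CPM (log2 -0.55, SE 0.12, and -0.49 with an adjusted p of 0.29 without doxorubicin library 3). AP4S1, a subunit of the adaptor complex AP-4, fell by 0.95 (SE 0.18) and overlaps STRN3 on the opposite strand. Its call held in 2 of the 7 fits with 1 library left out. AC090409.1, a non-coding RNA, had 16.6 to 20.4 CPM, against 24.8 to 38.8 CPM. The call of AC090409.1 held in 1 of those 7 fits and in 3 of 9 other settings. AL359183.1 had 0.745, 0.393, 0.605 and 0 CPM, against 1.92, 0.878 and 38 CPM, a fitted log2 of -4.82 (SE 0.92). Its call rests on doxorubicin library 3, without which the log2 value was -1.61 (adjusted p = 0.656).

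No member of the cholesterol and fatty acid list was called, yet it leaned downward. Of 31 genes tested, 25 lay below 0, and 15 were lower and 0 higher at an unadjusted p under 0.05, a share of 48.4% against 5.75% of all genes tested. FDPS, which makes farnesyl diphosphate, had 73, 64.1, 73.5 and 63.5 CPM with the combination, against 138, 111 and 121 CPM with doxorubicin (log2 -0.85, SE 0.24, adjusted p = 0.159). The values of the desaturase FADS1 and of fatty acid synthase FASN were -0.43 (SE 0.11) and -0.49 (SE 0.16) on the log2 scale. The summed level of the list was 2014 ± 136 CPM with the combination (SD, n = 4) and 2619 ± 217 CPM with doxorubicin (SD, n = 3; two-sided exact permutation p = 0.0571, the smallest possible, and 0.409 adjusted). With decitabine alone the sum was 2493 ± 221 CPM and with vehicle 2266 ± 345 CPM (SD, n = 4 each). The combination libraries (1850 to 2182 CPM) lay within the vehicle range (1848 to 2645 CPM). The median log2 of the list was -0.38 here, 0.11 for decitabine alone and -0.02 for the same addition in resistant tumours. Without doxorubicin library 1 the count of lower genes was 6, without combination libraries 1 and 4 in turn 9 and 10, and without doxorubicin library 2 it was 10.

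**Figure D2:**
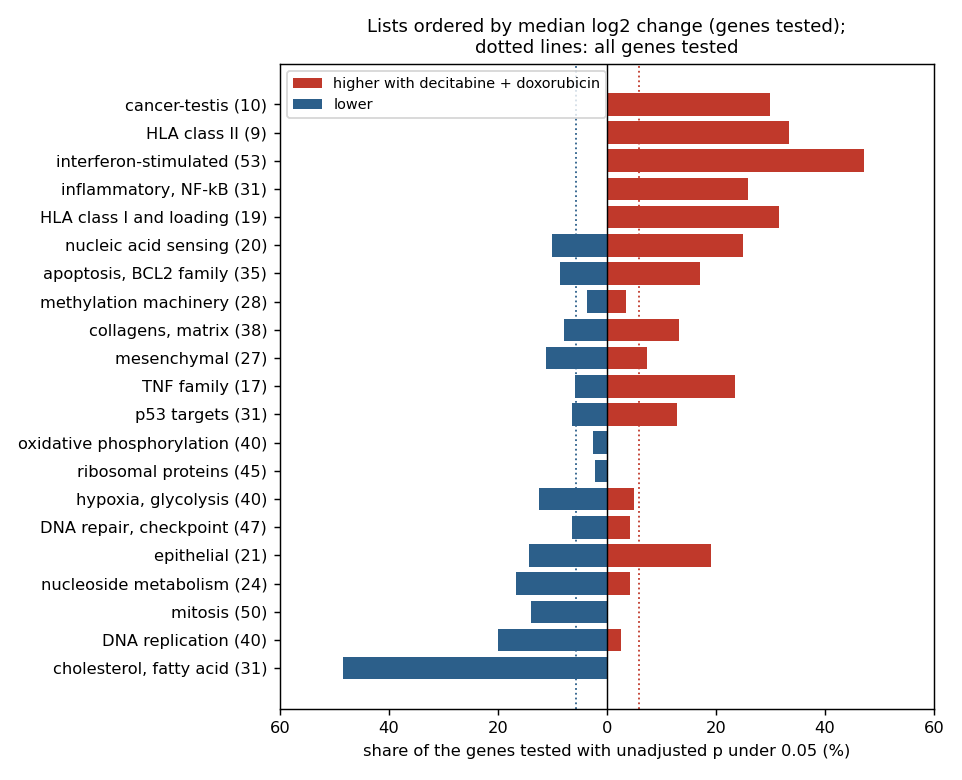
Share of the genes tested in each of 21 lists that differed at an unadjusted p under 0.05, higher with the combination to the right and lower to the left, in percent. Numbers in brackets are genes tested, lists run down from the highest to the lowest median log2 value, and dotted lines mark the shares over all genes tested (5.92% and 5.75%). The interferon-stimulated list reaches furthest to the right and the cholesterol and fatty acid list furthest to the left.

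The targets of the drugs themselves were not called. DNMT1, the maintenance methyltransferase that decitabine traps, had 242, 215, 194 and 196 CPM in the combination libraries, against 275, 261 and 232 CPM in the doxorubicin libraries (log2 -0.28, SE 0.16, adjusted p = 0.502). On the same scale the de novo enzymes DNMT3A and DNMT3B were at 0.13 (SE 0.20) and 0.59 (SE 0.40). TOP2A, the enzyme that doxorubicin poisons, had 660 to 955 CPM, against 790 to 1040 CPM (log2 -0.25, SE 0.16, adjusted p = 0.563). Of 10 cancer-testis genes tested, none was called. At an unadjusted p under 0.05, 3 were higher and 0 lower, beside 5.92% and 5.75% of all genes tested. MAGEB2, from a family with near-identical copies, had 1.18 to 1.82 CPM with the combination, and in doxorubicin tumours a count in library 2 only.

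A part of the response was also seen where decitabine was given without doxorubicin. Against vehicle, decitabine alone changed 225 genes of the parental tumours (1.67% of those tested), 107 higher (0.793%) and 118 lower (0.874%), in libraries not shared with the present comparison. Of the 35 genes raised on top of doxorubicin, 13 were also raised by decitabine alone, 37.1% of the 35 and 12.1% of the 107. NFATC4 was the one falling gene called in both. The fitted log2 values had the same sign in 33 of the 35 rising genes. LRRC17 (3.54 added to doxorubicin, 2.82 alone), INPP5D (3.61 and 3.24), CD70 (3.74 and 3.19) and NOL4L (1.15 and 1.16) lay close in both settings, as did IFIT2 (1.06 and 0.87) and HERC5 (0.93 and 0.78). SLC14A1 was at 1.99 when decitabine was added to doxorubicin and at 0.13 with decitabine alone, and PRDM9 at 1.47 and 0.14. EREG was at 1.20 and 0.30, HLA-B at 1.11 and 0.34, and SLC6A6 at 0.75 and -0.21. Tested as a difference between the 2 settings, 19 of the 41 genes had an unadjusted p under 0.05, against 11.5% of all genes tested. The 41 were chosen for their values in one of the settings, which by itself raises that count. None of them passed the adjusted test in edgeR. In DESeq2, which gave 10 of the 41 no adjusted p, 3 passed: SLC14A1 (difference 1.88, adjusted p = 0.0236), the circadian repressor BHLHE41 (0.96, adjusted p = 0.0229) and SLC6A6 (0.95, adjusted p = 0.0253). All 3 averaged less with doxorubicin alone than with vehicle. SLC14A1 averaged 16.4 CPM with vehicle, 8.06 CPM with doxorubicin and 32.8 CPM with the combination. In the same order BHLHE41 averaged 48.1, 30.3 and 52.0 CPM, and SLC6A6 55.8, 42.9 and 71.9 CPM. In edgeR none of the 3 was called for doxorubicin against vehicle (adjusted p from 0.0905 to 0.414).

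**Figure D3:**
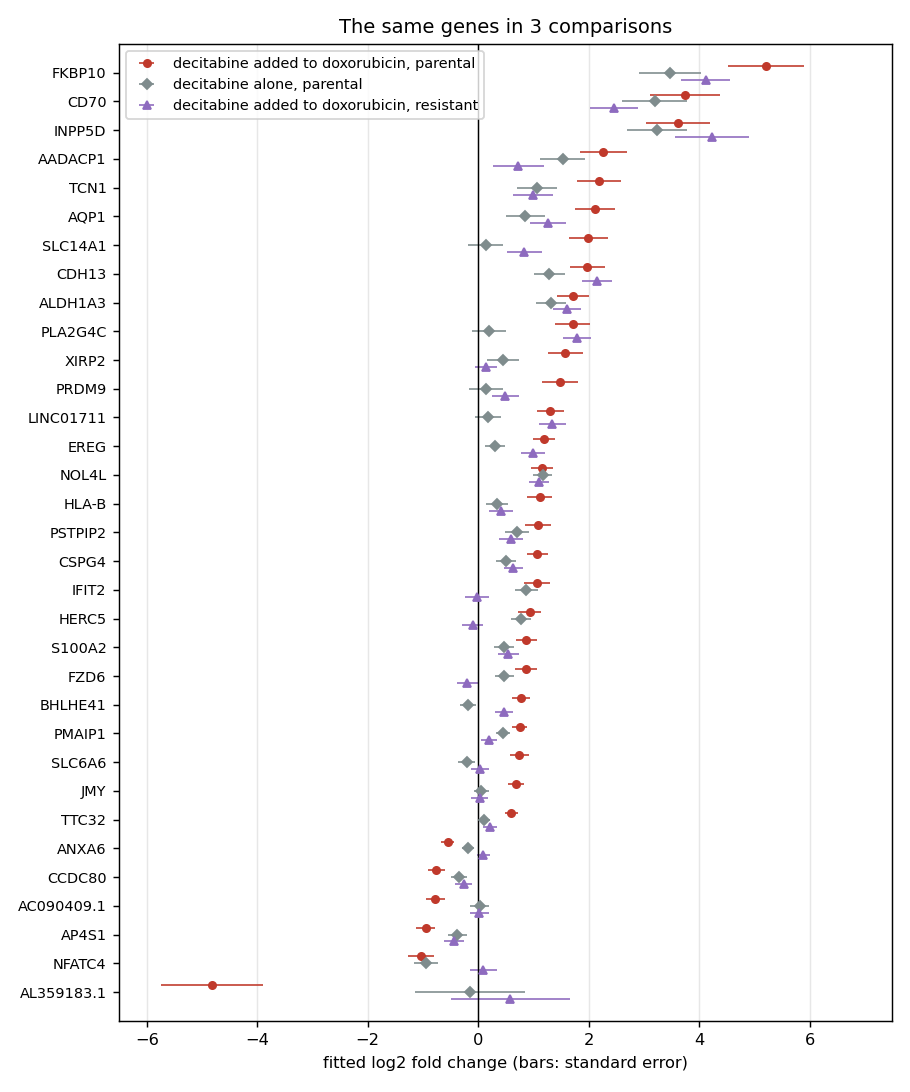
Fitted log2 fold change with its standard error for the 33 genes of the plot of levels, for decitabine added to doxorubicin in parental tumours (circles), decitabine alone in parental tumours (diamonds) and decitabine added to doxorubicin in paclitaxel-resistant tumours (triangles). FKBP10, CD70 and INPP5D lie to the right in each comparison, whereas SLC14A1, PRDM9 and SLC6A6 have circles to the right of the diamonds.

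Over all genes, the difference between decitabine on top of doxorubicin and decitabine alone was called in edgeR for 1 gene (0.00741%), and 1552 genes had an unadjusted p under 0.05. ITGA10, a collagen-binding integrin chain, had 39.5, 38.1, 52.1 and 51 CPM with the combination and 31.9, 44.6 and 20.3 CPM with doxorubicin. With decitabine alone it had 22.1 ± 7.32 CPM and with vehicle 56.6 ± 10.9 CPM (SD, n = 4 each). Its log2 value was 0.48 (SE 0.23) on top of doxorubicin and -1.36 (SE 0.22) for decitabine alone, a difference of 1.84 (SE 0.32, adjusted p = 0.0459). The call was lost in 12 of the 15 fits with 1 parental library left out, with differences from 1.61 to 2.14.

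The medians of the proliferation lists lay on opposite sides of 0 in the 2 settings, although edgeR called none of their genes in the test of the difference. Whether DESeq2 called any of them was not examined. Mitotic regulators summed to 3972 ± 426 CPM with the combination (SD, n = 4) and 4586 ± 469 CPM with doxorubicin (SD, n = 3). With decitabine alone the sum was 6379 ± 825 CPM and with vehicle 4604 ± 958 CPM (SD, n = 4 each). The median log2 value of the 50 genes was -0.21 on top of doxorubicin and 0.61 for decitabine alone. The difference was below 0 in all 50, and 38 of them (76%) had an unadjusted p under 0.05, against 5.83% of all genes tested that were lower at that level. CDC20, an activator of the anaphase-promoting complex, had 27.7, 26.9, 30.7 and 27.5 CPM with the combination, against 53.1, 34 and 44.8 CPM with doxorubicin. Decitabine alone gave 41.6 to 52.8 CPM and vehicle 20.5 to 40.8 CPM, and the difference was -1.12 (SE 0.26, adjusted p = 0.125). The mitotic kinase CDK1 had 86.2 to 103 CPM with the combination, against 99.5 to 134 CPM with doxorubicin, and was raised by decitabine alone (log2 0.63, SE 0.15, adjusted p = 0.0344). BIRC5, which encodes survivin, was raised by decitabine alone as well (log2 0.80, SE 0.17, adjusted p = 0.0182) and had a value of -0.14 (SE 0.18) on top of doxorubicin. Of 40 DNA replication genes, 21 were lower in the difference at an unadjusted p under 0.05 and none higher, with medians of -0.22 and 0.41, and DNMT1 had a difference of -0.81 (SE 0.21, adjusted p = 0.132). The genes of such a list move together and are not independent. With each parental library left out in turn, all 50 mitotic genes stayed below 0 and 26 to 44 had an unadjusted p under 0.05.

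**Figure D4:**
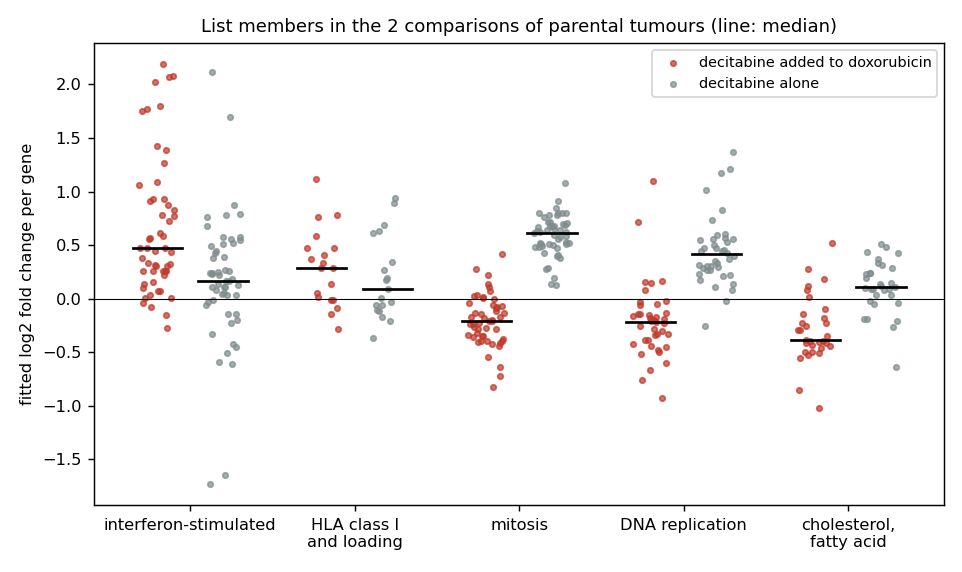
Fitted log2 fold change of each tested member of 5 lists, for decitabine added to doxorubicin (left points of each pair) and decitabine alone (right points), with the median as a line. The mitosis medians are -0.21 and 0.61, and the interferon-stimulated medians 0.47 and 0.17.

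**Figure D5:**
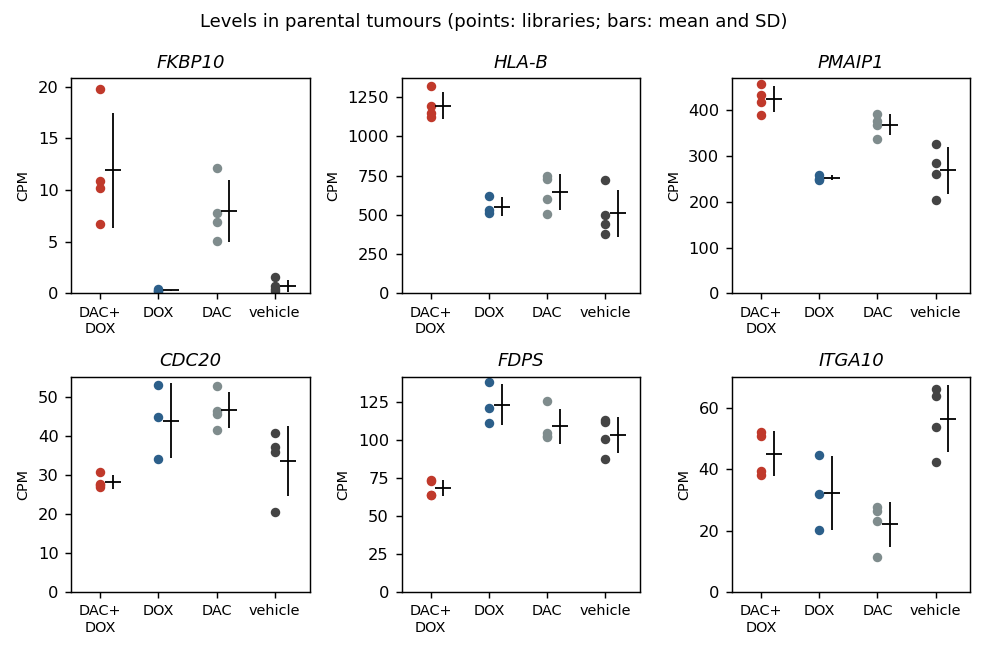
CPM of 6 genes in the libraries of the 4 parental groups: decitabine plus doxorubicin (DAC+DOX), doxorubicin (DOX), decitabine (DAC) and vehicle. FKBP10 is high in both decitabine groups, HLA-B is highest in the combination, CDC20 and FDPS are lowest in the combination on average, and ITGA10 is lowest on average with decitabine alone.

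The same addition was made in paclitaxel-resistant tumours, which came from more injected cells (1500000) and were treated from day 16, so that the line cannot be told apart from these settings. There the combination against doxorubicin changed 89 genes (0.66%), 80 higher (0.593%) and 9 lower (0.0667%), again in other libraries. Of the 35 genes raised in parental tumours, 17 were raised there too, 48.6% of the 35 and 21.2% of the 80, and 10 were raised in all 3 comparisons. None of the 6 falling genes was called in the resistant tumours. FKBP10 was at 5.21 in parental and 4.12 in resistant tumours, ALDH1A3 at 1.71 and 1.60, CDH13 at 1.97 and 2.15, and PLA2G4C at 1.71 and 1.78. The interferon genes IFIT2 (1.06 and -0.03) and HERC5 (0.93 and -0.10), HLA-B (1.11 and 0.41) and PMAIP1 (0.75 and 0.19) were called only in the parental tumours of these 2 comparisons. As a whole the 2 lists leaned upward in both lines. The median log2 of the interferon-stimulated list was 0.47 in parental and 0.33 in resistant tumours, and that of the class I list 0.29 and 0.23. In resistant tumours 0 interferon-stimulated genes and 1 class I gene were called higher. The test of the difference between lines called 0 genes in edgeR, with 1959 at an unadjusted p under 0.05, and 18 in DESeq2. Of the 41 genes, AL359183.1 was the one among those 18, so the gaps of IFIT2, HERC5, HLA-B and PMAIP1 were not shown to differ between lines. In all, 15 of the 35 rising genes and 5 of the 6 falling genes were called in neither of the other 2 comparisons.

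The number of calls depended on single libraries. It was 32 and 35 without combination libraries 1 and 3, 20 and 19 without combination libraries 2 and 4, and 15, 15 and 7 without doxorubicin libraries 1, 2 and 3. LRRC17, FKBP10, INPP5D, CDH13 and CD70 were called in each of these 7 fits and in all 9 other settings tried. HLA-B stayed between 1.08 and 1.22 on the log2 scale but had an adjusted p of up to 0.134 when 1 library was left out, and PMAIP1 between 0.73 and 0.79 with up to 0.0785. For IFIT2 and HERC5 the adjusted p reached 0.22 and 0.297, and the call held without 1 of the 7 libraries.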

How the data were processed

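Tumour RNA was poly(A) selected and made into 3′ tag libraries (QuantSeq FWD, Lexogen), per the labels' protocols, so counts do not scale with transcript length. The authors deposited raw counts per gene as whole numbers. The submitters' processing notes name STAR 2.7.3a, cutadapt, featureCounts, DESeq2 and the build GRCh38.p10. The annotation release, strand setting and treatment of mouse reads are not given in the sources used here, so values of overlapping, antisense or near-identical genes are uncertain and human-like mouse reads could be counted.

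Genes passed filterByExpr (minimum count 10, minimum total 15). All 29 libraries entered 1 robust quasi-likelihood fit in edgeR 4.0.16 (R 4.3.3) with 8 group means, with TMM scaling (factors 0.896 to 1.07). P-values were adjusted by Benjamini-Hochberg within a contrast, and a gene was called under 0.05. CPM use the scaled library sizes. Fold changes are fitted log2 values. With 0 counts in a group a bound from 3 counts is given, and with 1 to 3 counts a ratio with an exact 95% interval.

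The genes compared, the 42 gene lists and the rule for named genes were chosen with earlier results of these data known. The rule took up to 10 called genes per direction with at least 5 CPM and separate groups, filled by smallest p where fewer qualified, no more than 4 called genes from a list (where none was called, 2 given as values), up to 5 genes per direction from each test of a difference, and DNMT1, DNMT3A, DNMT3B, TOP2A and CDKN1A. The other called genes, and OASL, IFI44, DDX60, MX1, HLA-C, B2M, TNFSF10, CDK1, BIRC5, FASN and BBC3, were chosen after their values were seen. Some genes are not reported here. Symbols came from a gene name table (12817 genes) and GENCODE 29 (654), which also gave overlaps, and 24 IDs had none. No pair of libraries within a group agreed within sampling noise. On data simulated for the comparison over 13495 genes, 55 of 100 genes changed by 1 on the log2 scale and 88 of 100 changed by 2 were recovered, with 10 false calls. The changed genes were drawn only from those averaging at least 1 CPM over the 29 libraries. No library that stood apart was simulated, so the recovery does not cover rarer genes or such a library.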

Additional observations from a re-analysis of the deposited data

Results flagged for a closer look

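Among 129 named genes checked, 7 had a combination library that stood apart from the other 3, by the gap to the nearest library as a share of the range. Chance alone flags about 1 group in 20. Library 2 was the one apart for LRRC17 (4.52 CPM against 3.35 to 3.54, share 0.838), PSTPIP2 (18.3 against 20.5 to 20.8, share 0.879), JMY (54.2 against 48 to 49, share 0.839), MT2A (1990 against 1600 to 1650, share 0.869) and ABCC3 (4.13 against 7.08 to 7.26, share 0.942). Library 3 stood apart for CSPG4 (33.5 against 27.5 to 28.1, share 0.897), and library 1 for ABCD4 (13.6 against 5.7 to 6.67, share 0.877). LRRC17 kept its call without each library. JMY kept it without doxorubicin library 2 only, CSPG4 lost it without doxorubicin libraries 2 and 3, and PSTPIP2 lost it without each library. The integrin gene ITGA10 was marked because its response to decitabine on top of doxorubicin and alone differed by 1.84 on the log2 scale.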

How the results depend on the processing

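The 41 calls became 305 with no filter on low counts, 68 without parental vehicle 3 and resistant decitabine 2, and 87 in DESeq2, and ranged from 7 to 35 with 1 library left out. Other scalings, a CPM filter and fits of fewer groups gave 35 to 60. For the difference with and without doxorubicin, the 1 call became 311 with no filter, 73 in DESeq2 and 0 without the 2 libraries, in the 15 parental libraries only and with the replicate block, and 0 to 5 with 1 library left out. For the difference between lines, the count of 0 became 507 with no filter and 18 in DESeq2, and stayed at 0 with each library left out. The cause was not tested. Replicate numbers did not pair the libraries (r from 0.066 to 0.0953 for same numbers), and with the replicate block 40 genes were called. Library names of the doxorubicin group skip a number, so replicate numbers may not follow the order of the tumours. No fit used another order, so a pairing of another kind was not tested. Of all single gene values under all alternatives, 4 changed sign: BIRC5 at 0.0017 without doxorubicin replicate 1 (range with 1 library left out -0.2516 to 0.0017), and, without doxorubicin replicate 3, CDKN1A at 0.0453 (-0.633 to 0.0453), MT-ND6 at 0.0492 (-0.8051 to 0.0492) and TUBA3C at 0.3709 (-0.7741 to 0.3709). Of the 41 genes, 20 were called in all 9 other settings. Leaving libraries out of the list counts was chosen after seeing the data. At this depth genes under 1 CPM rest on few counts, and the design of 4 against 3 limits a single summary value to a p of 0.0571.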

Other observations

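Antigen presentation by class II and inflammatory genes gave values that belong to no call. Of 9 class II genes tested, 8 lay above 0 when decitabine was added to doxorubicin (median log2 0.81), beside a median of -0.50 for decitabine alone. HLA-DRB1, a class II β chain with near-identical copies, had 2.42, 1.77, 4.84 and 5.42 CPM with the combination, against 1.15, 1.1 and 0.521 CPM with doxorubicin (log2 1.88, SE 0.87, adjusted p = 0.402). CTSS, the protease that trims the class II chaperone, had 9.5 to 16.3 CPM, against 4.61 to 7.82 CPM (log2 1.04, SE 0.30, adjusted p = 0.153), and was raised by decitabine alone (log2 1.20, SE 0.27, adjusted p = 0.0271). Of 31 inflammatory NF-kB genes, 8 were higher and 0 lower at an unadjusted p under 0.05, beside 5.92% and 5.75% of all genes tested. The summed level of that list overlapped, at 1330 to 1784 CPM with the combination and 1090 to 1829 CPM with doxorubicin (two-sided exact permutation p = 0.857). SOD2, a mitochondrial superoxide dismutase, had 35.5 to 55.6 CPM with the combination, against 21.4 to 30.5 CPM with doxorubicin (log2 0.91, SE 0.28, adjusted p = 0.212).

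Summed over 8 haemoglobin and erythroid genes, of which HBA2, ALAS2 and AHSP had no count, the level was 0.372 to 0.833 CPM with the combination, against 0.962, 3.73 and 7.04 CPM with doxorubicin. The imprinted genes (33 listed, 22 with a count) summed to 1793 ± 66.7 CPM with the combination (SD, n = 4) and 2016 ± 46.9 CPM with doxorubicin (SD, n = 3), without overlap, and the two-sided exact permutation p was 0.0571 in both lists (0.409 adjusted over 43 values). The lower sum was not shared by most imprinted genes. Of 17 tested, 11 lay above 0 and 6 below, with a median log2 of 0.04. At an unadjusted p under 0.05, 0 were higher and 1 was lower, beside 5.92% and 5.75% of all genes tested.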
